A study of Arabidopsis thaliana with 10 samples.

Results

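The measurements described here are the transcript ratios of Arabidopsis thaliana (Col-0) leaves after a 48 h stay in light absorbed mostly by photosystem I (PSI light), following acclimation to light absorbed mostly by photosystem II (PSII light). They form 1 of the 10 columns of the deposited value table, taken by its sample title and treated as 1 sample. Of the 3261 features on the filter, 3163 had a ratio above 0 in this column, and 627 of these belonged to exactly 1 gene, out of 644 such single-gene features in all. Only single-gene features are named below. Of the 644, 89 carry a symbol other than their locus name, so gene lists searched by symbol and synonym cover a small named minority, and a pathway's other genes may be on the filter unnamed.

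All plants were wild type and grew on soil for 21 days in white light with days of 8 h light and 16 h dark. They then spent 3 days in PSII light, were sampled as reference, and went to PSI light for 30 min, 2 h, 8 h or 48 h. The reverse shift, from PSI light to PSII light, was sampled at the same times, and each shift has a further column labelled with plants in white light as control. Every sample pooled at least 250 to 500 plants, so single plants cannot be seen. The source names of the samples speak of thylakoid membranes, whereas the protocols describe total RNA of leaf material. Ratios hold no level, so the tissue could not be checked against marker genes.

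Photosynthetic electron transport runs from photosystem II through the plastoquinone pool and the cytochrome b6f complex to photosystem I. Light that favours photosystem II feeds electrons into the plastoquinone pool faster than photosystem I drains it, and light that favours photosystem I does the opposite. Plants respond within minutes by moving light-harvesting antenna between the photosystems, and over days by changing the amounts of the photosystems themselves. The redox state of the pool is known to act on transcription of plastid and nuclear photosynthesis genes.

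Values are given as the log2 of the deposited ratio minus the median log2 ratio of its column, called the centred log2 value, so that 1 is 2-fold above the median and −1 is 2-fold below it. The median deposited ratio of the column was 1.26, the highest of the 10 columns, which makes every deposited log2 value 0.33 larger than the centred one. The labels do not say which sample is the numerator. All signs are therefore those of the deposited ratio, and every "above" and "below" in this column exchanges places if the reference stands on top. The table has 1 value per spot and condition with no replicate columns, although 3 independent experiments were made per time point. No difference could be tested, and a fold past 2 is a description of this column.

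The column was wide compared with most others. Its interquartile range over all features was 0.75 on the log2 scale, the fourth largest of the 10, after 0.93 at 48 h of PSII light, 0.83 in the white light column of that shift and 0.79 at 8 h of PSI light. Its early neighbour at 2 h of PSI light had the narrowest, 0.37. The low side of the column reached farther than the high side: 5% of the features lay below −1.27 and 5% above 0.97.

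Of the 627 single-gene features, 24 were 2-fold or more above the column median and 33 were 2-fold or more below it. These are shares of 3.83% and 5.26%, against 4.68% and 7.30% over all 3163 features, so genes with a spot of their own did not stand out by number. Which side held more genes depended on the scaling, with 69 above and 17 below without centring and 26 above and 12 below after quantile normalization. Within 1.5-fold of the median lay 447 of the 627 genes, or 71.3%. At 4-fold or more lay 9 genes below and 2 above the median, but 2 below and 4 above after quantile normalization. A fold of 2 cuts through a continuous range. NTRC at 0.997 and AT4G20690 at 0.992 fell just short on the high side, where AT5G11650 at 1.021 was just inside. On the low side NdhS at −1.005 was just inside and AT1G49850 at −0.985 just outside.

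**Figure D1:**
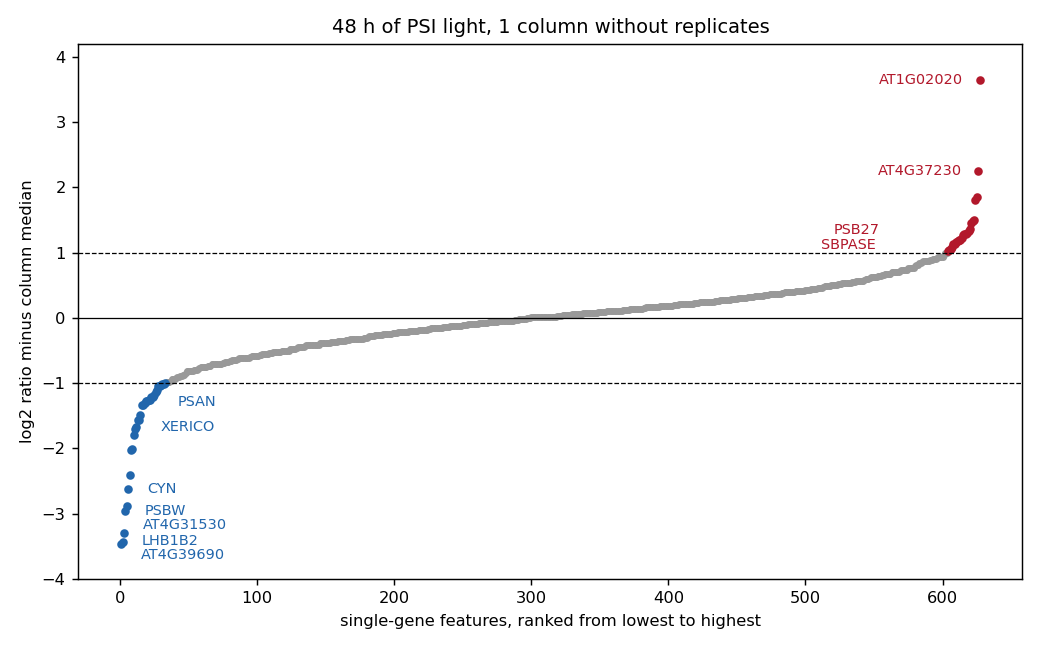
Centred log2 values of the 627 single-gene features at 48 h of PSI light, ranked from lowest to highest on the x axis. Red points mark the 24 genes 2-fold or more above the median, blue points the 33 genes 2-fold or more below it, and dashed lines the 2-fold limits. AT1G02020 at 3.65 stands alone on the high side, while LHB1B2, PSBW, AT4G31530 and AT4G39690 lie near or below −3 on the low side.

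Photosystem genes held 2 of the 4 lowest places among the 627 genes. LHB1B2, also called LHCB1.5, is a light-harvesting chlorophyll-binding protein of the photosystem II antenna. It lay at 0.0924 times the column median. PSBW, a small subunit of the photosystem II core, lay at 0.128 times the median. PSAN, a lumenal subunit of photosystem I, was at 0.404 times the median. PSBY, a further small photosystem II subunit, had a centred log2 value of −0.74, under 2-fold. LHB1B2 belongs to a family of near-identical antenna genes, and how much of its signal came from its relatives was not tested.

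PSB27 and LPA19, the photosystem II assembly factors in the list, did not share these low values. PSB27, a lumenal protein of photosystem II assembly and repair, was at 2.35 times the median. With a pseudocount its log2 value was 0.98, under 2-fold. LPA19, a homologue of PSB27 that is also needed for photosystem II accumulation, was at 1.02 times the median. Of the 6 photosystem and antenna genes in the list, 3 were thus 2-fold or more below the median and 1 was above, beside 7.30% and 4.68% of all features. PSBW, PSBY, PSB27, LHB1B2 and PSAN were entered by locus with earlier results of these data known, so this count is no result. The list median was −1.02, against 0.02 over all 627 genes, and −0.69 without centring or −0.67 after quantile normalization. PSAN lay under 2-fold in all 3 alternatives run for single genes, with −0.98 without centring, −0.81 after quantile normalization and −0.78 with a pseudocount. In RNA from pooled leaves, a lower ratio from fewer cells of a type and one from less RNA per cell cannot be told apart.

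The 48 h value was the lowest that LHB1B2, PSBW and PSAN reached in any of the 10 columns. LHB1B2 had centred log2 values of 1.20, −0.08, 0.22 and −3.44 along the shift to PSI light (30 min, 2 h, 8 h, 48 h), and −0.22 in its white light column. In the shift to PSII light it had −0.25, −1.47, −1.38 and 0.08 from 30 min to 48 h, and −0.40 in white light. It was therefore highest at 30 min of PSI light and lowest at 48 h, and its low values at 2 h and 8 h of PSII light were smaller in size.

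PSBW had 0.83, −0.18, 0.89 and −2.96 along the shift to PSI light and 0.10 in its white light column. In the shift to PSII light it had 0.04, 0.11, −0.43 and 1.19, and 0.73 in white light. Outside the 48 h column of PSI light PSBW stayed between −0.43 and 1.19, so this 1 column sets it apart.

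PSAN had 0.91, −0.40, −0.31 and −1.31 along the shift to PSI light and 0.11 in white light, and −0.08, −0.96, −0.54, 0.94 and 0.74 in the corresponding columns of the other shift. PSBY followed a like order in the shift to PSI light with 1.09, 0.07, 0.84 and −0.74, and its lowest value was again the 48 h one. PSB27 ran the other way, with −1.21, −0.62, −0.16 and 1.23, so that its highest value of all columns was at 48 h of PSI light. The 4 times of a shift were set against 1 reference, and these values stand side by side without a test.

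**Figure D2:**
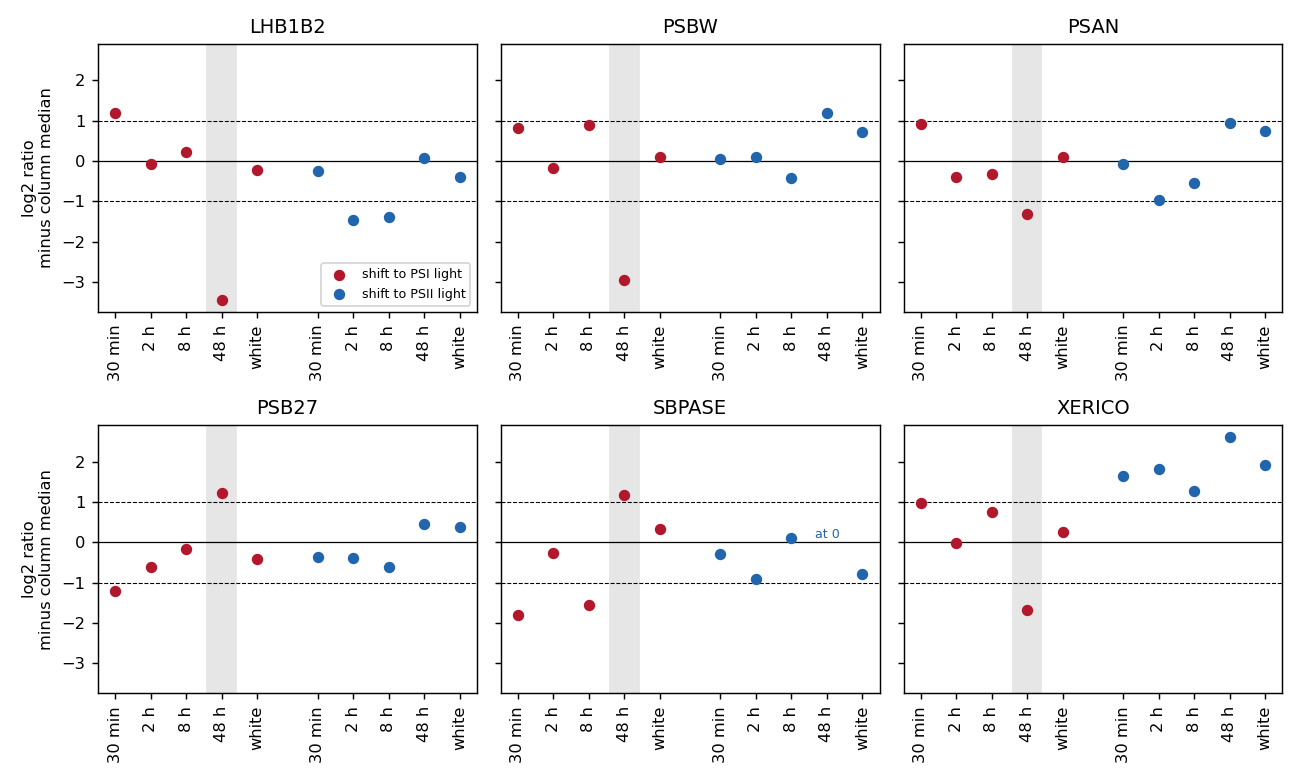
Centred log2 values (y axis) of LHB1B2, PSBW, PSAN, PSB27, SBPASE and XERICO in all 10 columns (x axis), red for the shift to PSI light and blue for the shift to PSII light, with the 48 h column of PSI light shaded and dashed lines at 2-fold. In the shaded column LHB1B2, PSBW, PSAN and XERICO are at their lowest and PSB27 and SBPASE at their highest, and SBPASE is listed at 0 at 48 h of PSII light.

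The chloroplast NDH complex, which passes electrons from ferredoxin back to plastoquinone around photosystem I, was represented by 5 genes. NdhS, the subunit at the ferredoxin-binding site of the complex, was at 0.498 times the median and so at the 2-fold limit. CRR21, an RNA editing factor for an NDH transcript, was at 0.720 times, and PIFI, a protein linked to NDH activity after illumination, at 0.876 times. NdhN, another subunit, was at 0.977 times and CRR41, an assembly factor, at 1.44 times. The list median was −0.19 and turned to 0.14 without centring, and 1 of 5 members was 2-fold or more below and none above, beside 7.30% and 4.68% of all features. NdhS, NdhN, CRR21 and PIFI were entered by locus with earlier results of these data known, so this count is no result. NdhS lay under 2-fold without centring, after quantile normalization and with a pseudocount, between −0.68 and −0.62.

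Within the list only NdhS had a wide range across the table. Its centred log2 values were 0.62, −0.24, 0.98 and −1.005 along the shift to PSI light and −0.13 in white light, and 0.99, 1.14, 0.55, 2.26 and 1.51 in the other shift. The value at 48 h of PSI light was its lowest and the value at 48 h of PSII light its highest. NdhN stayed between −0.56 and 0.41 in every column.

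A list of 7 factors that process organelle RNA or act in organelle translation was put together after the values were known, from genes with a symbol or synonym, so its balance of high and low members is no result. OTP70, a pentatricopeptide repeat protein of plastid transcript processing, was lowest with 0.442 times the median, and it lay under 2-fold in the same 3 alternatives. ATAB2, which acts in translation of photosystem subunits, was at 0.681 times, PAC (PALE CRESS), needed for plastid development, at 0.687 times, and mTERF9 (AT5G55580), of a family named for mitochondrial transcription termination, at 0.779 times. OTP85, an editing factor, and OSB1, a DNA-binding protein of mitochondria, were at 1.06 and 1.13 times. With CRR21 counted here as well, 5 of 7 lay below the median, as did 298 of all 627 genes, 1 of them past 2-fold, beside 7.30% of all features. The list median was −0.47.

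The 3 plastid ribosomal protein genes listed here, chosen after their values were seen, differed among themselves. Of these, 1 was 2-fold or more above the median, beside 4.68% of all features. AT3G54210 was at 2.20 times the median, AT1G29070 at 0.893 times and AT1G64510 at 0.686 times. In the other 9 columns AT3G54210 stayed between −0.10 and 0.43, so its 48 h value of 1.14 was its only one past 2-fold. With a pseudocount that value was 0.90, under 2-fold.

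The gene table gives a symbol of their own to 8 of the 33 genes at least 2-fold below the median, and the other 25 carry only their locus name. Beside LHB1B2, PSBW, PSAN, NdhS and OTP70, the named ones are CYN, XERICO and FZL. CYN, the cyanase that breaks down cyanate, was at 0.162 times the median. Its centred log2 values along the shift were −0.46, 1.13, −1.51 and −2.63, with 0.01 in white light. It was thus 2-fold or more above the median at 2 h and below it at 8 h and 48 h.

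XERICO, a RING-type protein known to promote abscisic acid accumulation, was at 0.315 times the median. After quantile normalization its log2 value was −1.01, and with a pseudocount −0.94, under 2-fold. Its centred log2 values were 0.97, −0.02, 0.74 and −1.67 along the shift to PSI light and 0.26 in white light, against 1.65, 1.82, 1.28, 2.60 and 1.92 in the other shift. The 48 h column of PSI light was the lowest of its 10. DI21, the second gene of the drought and abscisic acid list, was at 0.773 times the median and under 2-fold. XERICO and DI21 were entered by name with earlier results of these data known. FZL, a dynamin-like protein of chloroplast and thylakoid shape, was at 0.491 times the median after 0.88 at 30 min and 0.81 at 8 h on the centred log2 scale, and was listed at 0 at 2 h. Its 48 h value lay under 2-fold in each alternative run for single genes.

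Genes known here only by their locus filled most of the remaining low places. AT4G39690 had the lowest single-gene value, 0.0910 times the median, followed after LHB1B2 by AT4G31530 with 0.102 times. AT4G39690 had 0.38, −0.58, 0.18 and −3.46 along the shift to PSI light, and AT4G31530 had 0.32, −0.71, 0.09 and −3.30. Neither was past 2-fold at an earlier time, so within this shift each left the middle of the distribution at 48 h alone.

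The same holds for AT4G19900, AT4G17070, AT2G38550 and AT3G26630. They were at 0.135, 0.188, 0.246 and 0.248 times the median, and all their earlier values in this shift were between −0.60 and 0.98. AT4G09620, AT4G08940 and AT1G07460 were at 0.288, 0.306 and 0.336 times, with earlier values between −0.48 and 0.64. For these genes the earlier columns of the shift gave no value past 2-fold in either direction.

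Another set had been well above the median earlier in the shift. AT3G22690 went from 1.39 at 30 min to −1.56 at 48 h, AT1G51350 from 1.42 to −1.26, AT3G09850 from 1.40 to −1.27 and AT1G05860 from 1.26 to −1.22. AT1G51350 was also at 1.21 at 8 h. AT3G09850 was at −2.39 at 2 h, its lowest in the table, so its path along the shift changed sign at each time. At 48 h AT1G51350, AT3G09850 and AT1G05860 lay under 2-fold in each alternative run for single genes. AT1G76450, AT4G29890, AT3G09080, AT1G32160, AT2G27290 and AT4G25290 complete the 25 lowest genes, between 0.357 and 0.430 times the median. The last of the 33, with FZL and NdhS, were AT1G17160, AT5G52960, AT5G44150, AT2G37750, AT3G21810 and AT5G66530, between 0.453 and 0.497 times.

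On the high side, AT1G02020 had the largest value of all features in the column, 12.6 times the median. Its centred log2 values were −0.25, −0.87, −1.02 and 3.65 along the shift to PSI light, −0.19 in white light, and between −0.95 and −0.43 in the shift to PSII light. It was below the median in each of the other 9 columns. AT4G37230 followed at 4.77 times the median, after −0.31 at 30 min and −0.40 at 2 h and a listed 0 at 8 h.

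AT2G48090 was at 3.63 times the median at 48 h after −1.39 at 8 h, and AT4G12270 at 3.51 times after 1.22 at 2 h and −0.61 at 8 h. AT2G24810 changed from −1.71 at 8 h to 1.49. AT3G50180 was the one gene of the 24 that was already 2-fold or more above the median at 8 h, with 3.88 there and 1.37 at 48 h. Of the 21 with a ratio at 8 h, 4 were 2-fold or more below the median there, namely AT1G02020, AT2G48090, AT2G24810 and SBPASE, beside 3.61% of all features in that column.

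Named genes on the high side were few, 5 of 24, and they came from different processes. APTX, an aprataxin-like protein of DNA repair, was at 2.53 times the median, but it was listed at 0 at 30 min, at 8 h and in white light. GH9B8, a cell wall hydrolase, was at 2.30 times. RALFL32, a peptide of the rapid alkalinization factor family, was at 2.20 times. With a pseudocount GH9B8 and RALFL32 had log2 values of 0.96 and 0.90, under 2-fold. PSB27 and SBPASE, described with their pathways, are the remaining 2. The other genes of the 25 highest were AT1G79480, AT4G31060, AT1G04420, AT2G34050, AT4G03150, AT5G02830, AT4G24840, AT3G43610, AT3G02690, AT2G47680, AT2G41950 and AT5G11650, with AT3G54210 and NTRC. The first 12 of these ran from 2.03 to 2.83 times the median, and AT3G50180 was at 2.59 times.

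SBPASE, the sedoheptulose-bisphosphatase that commits carbon to regeneration in the Calvin-Benson cycle, was at 2.26 times the median. With a pseudocount its log2 value was 0.93, under 2-fold. Along the shift to PSI light it had −1.79, −0.27, −1.55 and 1.18, and 0.32 in white light. It was thus low at 30 min and 8 h and high at 48 h. PRK, the phosphoribulokinase of the same cycle, was at 1.21 times the median and lay between −0.07 and 0.48 at the earlier times.

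PPDK, the pyruvate orthophosphate dikinase, was at 1.58 times the median and NADP-dependent malate dehydrogenase (AT5G58330), a thioredoxin-controlled enzyme that exports reducing power from the chloroplast as malate, at 1.22 times. UGT74D1, a sugar transferase caught by the same search pattern, was at 0.893 times. Of these 5 genes 4 lay above the median, as did 329 of all 627, and 1 was past 2-fold, beside 4.68% of all features. The list median was 0.28. The pattern for kinases and phosphatases found PRK, PPDK and SBPASE again, with a median of 0.66.

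The genes of pigment synthesis named here were all under 2-fold from the median, as were most features, with 4.68% past it above and 7.30% below. CHLM, the magnesium-protoporphyrin methyltransferase of chlorophyll synthesis, was at 1.13 times, Z-ISO, an isomerase of carotenoid synthesis, at 1.08 times and geranylgeranyl reductase (AT1G74470), which makes the phytyl tail of chlorophyll, at 0.663 times. The last had been 2-fold or more above the median at 30 min and 8 h, and −0.59 at 48 h was its lowest value in the table. HEMA3 of the glutamyl-tRNA reductase family and SIRB, a ferrochelatase of sirohaem synthesis, were at 1.28 and 0.868 times. The median over the list, which held CHLM, Z-ISO, AT1G74470 and, by letters, PIFI, was −0.04.

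Chloroplast redox enzymes differed among themselves. NTRC, a thioredoxin reductase with its own thioredoxin domain that reduces peroxiredoxins, was at 2.00 times the median and had 0.59, 0.01, 0.86 and 1.00 along the shift. AT2G04700, a subunit of ferredoxin-thioredoxin reductase, was at 0.521 times after 0.61, 0.44 and 1.23 at the earlier times, so it ended below the median after standing above it. The peroxiredoxin gene AT3G52960 was at 0.750 times and had 0.92 at 8 h.

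SRX, the sulfiredoxin that repairs overoxidised peroxiredoxin, and CCS, the copper chaperone of superoxide dismutase, were at 1.10 and 0.928 times, and with NTRC they gave the thioredoxin list a median of 0.13. GLDH, the last enzyme of ascorbate synthesis, was at 1.49 times, and ETFQO, a mitochondrial electron transfer protein, at 1.04 times. None of these genes was 2-fold or more from the median, with NTRC at the limit, beside 4.68% of all features above and 7.30% below. The pattern for other oxidoreductases had 7 genes, among them NTRC, NdhS, NdhN, AT1G74470 and AT5G58330 already given, with a median of 0.06. NdhS, at the 2-fold limit, was the only one of the 7 past it, beside 7.30% of all features below.

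**Figure D3:**
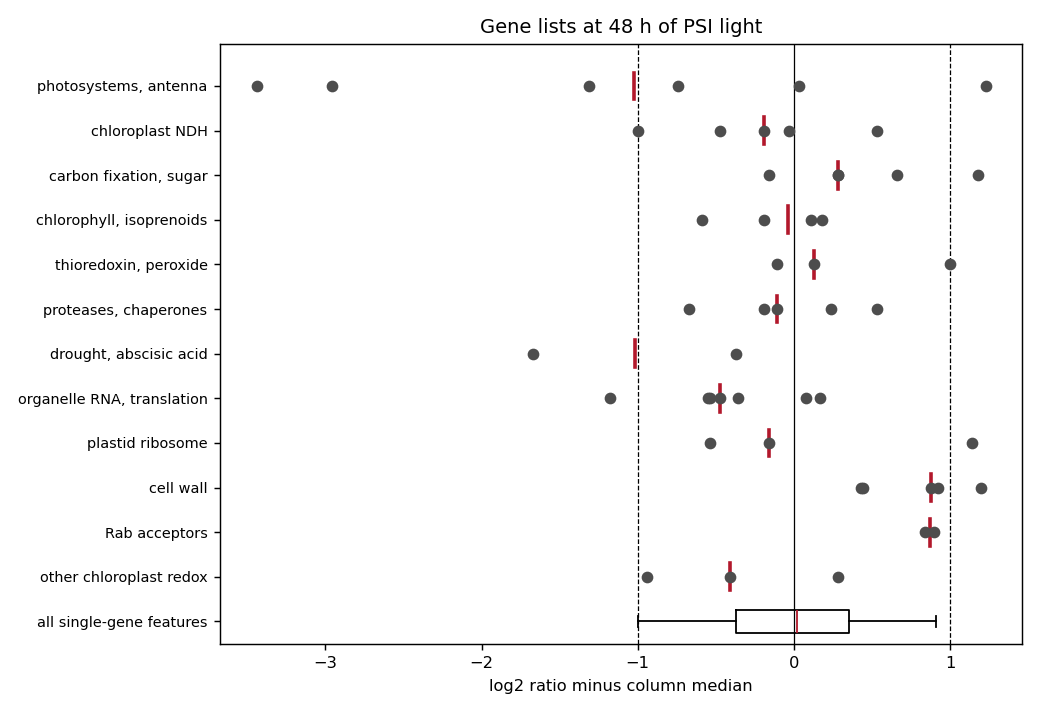
Centred log2 values (x axis) of the members of 12 gene lists at 48 h of PSI light. Each point is a gene, red bars are list medians, dashed lines mark 2-fold, and the box at the bottom shows the quartiles of all 627 single-gene features with whiskers at the 5th and 95th percentiles. Photosystem genes range from −3.44 to 1.23, and LPA19 at 0.03 lies between them. The last 5 lists, from organelle RNA to other chloroplast redox genes, were drawn up after their values were seen.

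The lists for the cell wall and for vesicle traffic were drawn up after their values were seen, so that the side on which their members lie was set by that choice. GH9B8, GH9B12, GH9B11 and GH9B16, members of glycosyl hydrolase family 9, which holds the endoglucanases of plants, were at 2.30, 1.84, 1.35 and 1.35 times the median. CSLA01, a cellulose synthase-like enzyme, was at 1.90 times. Of the 5, GH9B8 was past 2-fold, though not with a pseudocount, beside 4.68% of all features. At 8 h of PSI light these 5 genes had values between −0.91 and −0.12, in a column where 340 of 608 genes lay below the median.

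The prenylated Rab acceptors PRA1.B3 and PRA1.B6, small membrane proteins of vesicle transport, were at 1.86 and 1.79 times the median. Neither passed 2-fold, beside 4.68% of all features 2-fold or more above. Among MADS box genes, AGL26 was at 1.43 times, AGL103 at 1.12 times and AGL54 at 0.804 times. GH9B11 and GH9B12 are neighbouring loci of related sequence, and how far such family members share signal on the filter was not tested.

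The listed proteases and chaperones stayed under 2-fold, as did most features, with 4.68% past it above and 7.30% below. SPPA, a light-induced protease of thylakoids, was at 0.630 times the median and TPP2, the tripeptidyl peptidase II, at 1.45 times. The chaperonin subunits Cpn60beta3 and Cpn60beta4 were at 1.18 and 0.876 times. With CCS the list of 5 had a median of −0.11. In the remaining searches, DRT100 and DRT101, named for DNA damage repair, were at 0.931 and 0.894 times, cystathionine beta-lyase (CBL) at 1.54 times, the glutamate receptor GLR2.7 at 0.734 times and the homeobox gene NDX (AT4G03090) at 0.997 times. The chloroplastic lipocalin CHL, at 1.55 times, and LAS, at 0.954 times, matched the patterns for transporters and repeat proteins by letters alone and are no such proteins. The amino acid pattern, with CBL and GLR2.7, had a median of 0.09, and the RNA and DNA pattern, with mTERF9 and both DRT genes, one of −0.16. The lipid pattern found FATB alone, which is listed at 0 here, and the patterns for ribosomes, mitochondria and undescribed proteins matched no symbol or synonym, although plastid ribosomal genes are present under locus names.

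The low genes had median centred log2 values of 0.53, −0.18, 0.43 and −1.33 from the earliest to the latest time. At 30 min 28 of the 33 were above the median, and at 8 h 25 of the 32 with a value were. Over all 627 genes, 268 of the 610 with a value lay above the median at 30 min, and 268 of 608 at 8 h. The high genes had medians of −0.04, −0.07, −0.14 and 1.27 at the same times, with 15 of the 21 valued genes below the median at 8 h. These are near the medians of all 627 genes at the 3 earlier times, −0.05, 0.03 and −0.07. The genes were chosen on the 48 h column and the columns share a reference, so these are values side by side and no measure of a relation between the times. In the white light column of this shift the medians were 0.03 for the low and 0.10 for the high genes.

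**Figure D4:**
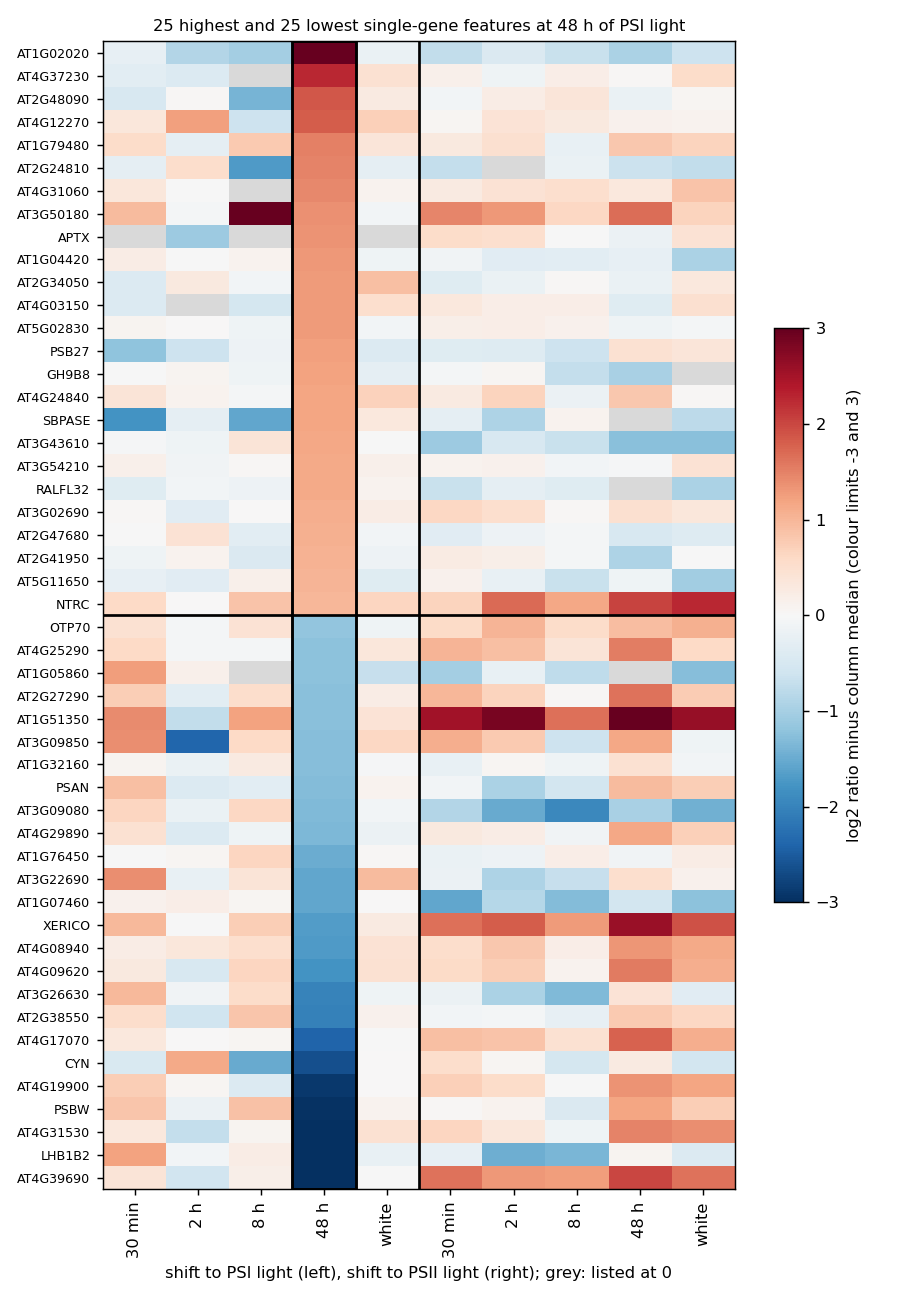
Centred log2 values (colour, from −3 in blue to 3 in red) of the 25 highest and 25 lowest single-gene features at 48 h of PSI light, in rows, across the 10 columns, with the 48 h column of PSI light boxed and features listed at 0 in grey. Most low genes are pale red at 30 min and 8 h of PSI light and many are red at 48 h of PSII light, while AT1G02020 is blue outside the boxed column.

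The 48 h column of the opposite shift has a reference of its own, the plants acclimated to PSI light. Of the 33 low genes 32 had a ratio there, and 16 of them were 2-fold or more above its median, which is 50.0% against 13.6% of all 3000 features with a ratio in that column. None of the 32 was 2-fold or more below it, against 3.30% of all features. The 16 make up 23.2% of the 69 genes that were high at 48 h of PSII light and had a ratio in both columns. They are AT1G51350, AT2G27290, AT2G37750, AT3G09850, AT4G08940, AT4G09620, AT4G17070, AT4G19900, AT4G25290, AT4G29890, AT4G31530, AT4G39690, FZL, NdhS, PSBW and XERICO.

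LHB1B2, with 0.08 at 48 h of PSII light, and CYN, with 0.27, were not among them. Of the 22 high genes with a ratio in both columns, AT3G50180 alone was 2-fold or more above at 48 h of PSII light, or 4.55%, beside 13.6% of all features. AT3G43610 alone was 2-fold or more below, also 4.55%, beside 3.30% of all features. Across the 592 single-gene features with both values, Pearson's r between the 48 h columns was −0.235 and Spearman's rho −0.121, as a description over genes measured on the same filters, with no p. Whether the opposed signs hold depends on both ratios having been formed the same way round, which the labels do not state. The overlap was counted on centred values only, and the median log2 ratios differed, 0.33 at 48 h of PSI light and −0.77 at 48 h of PSII light. Among the 16 genes, FZL, NdhS, AT1G51350, AT2G27290, AT2G37750, AT3G09850 and AT4G25290 lay under 2-fold at 48 h of PSI light in each alternative run for single genes.

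**Figure D5:**
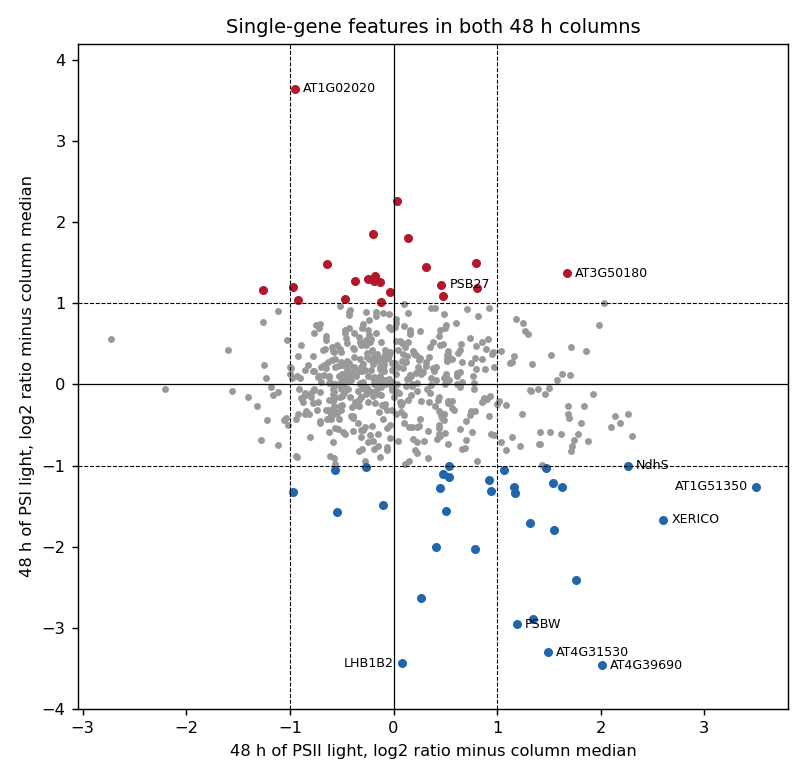
Centred log2 values of the 592 single-gene features with a ratio in both 48 h columns, PSII light on the x axis and PSI light on the y axis. Blue points are genes 2-fold or more below the median in PSI light, red points those above, and dashed lines mark 2-fold. Of the blue points 16 lie at or beyond 2-fold on the right and none at or beyond 2-fold on the left.

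In this column 17 single-gene features were listed at 0 and have no ratio, and 3 of these were at 0 in every column. An exact 0 can be a failed estimate, so no fold is given for them. Among those with a ratio at all 3 earlier times were FATB, a thioesterase that ends fatty acid synthesis in the plastid, with 0.74, 0.28 and 1.00, and AT2G26340, with −0.61, 1.91 and −2.30. AT5G27860 had 1.17, 0.55 and 1.66, and AT4G31930 −0.66, 0.58 and 0.46. The remaining 2 of these 6 were AT1G18060 and AT1G58230, which stayed under 2-fold at all 3 times.

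The table offers 1 view of how far spots of the same gene agree. AT2G25870 has 2 spots, which were at −0.51 and 0.44 at 48 h of PSI light, on opposite sides of the median and 0.95 apart on the log2 scale. Across the 10 columns the gap between them ran from 0.00 to 1.26. A gap of this size covers most of the distance to the 2-fold limit. A single pair of spots gives no measure of the error of other genes.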

How the data were processed

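Total RNA of leaves (25 to 30 µg) was reverse transcribed with 33P and a primer mix for 1827 genes and hybridised to nylon filters with 3292 tags, per the labels' protocols. The values deposited by the authors are linear ratios per spot to a reference, per the labels. Background correction, scaling, the direction of the ratio and the way 3 experiments became 1 column were not given in the sources consulted. The number of filters limits the precision.

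Of 3262 spots, 645 were paired with 1 gene, 829 with several and 1788 with none by the platform annotation, which is old. Symbols came from the TAIR10.1 gene table, which held 643 of the 645. An exact 0 was taken as missing, the log2 of the ratio was formed, the column median was subtracted, and the 2 spots of 1 gene were averaged (Python 3.11.15, pandas 2.3.3). A feature was counted at 2-fold or more, with no test. The steps were tested on simulated data.

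Named were the 25 highest and 25 lowest single-gene features, list members past 2-fold, and all members of 5 photosynthesis and redox lists. The 18 lists were set as search patterns for symbols and descriptions, but the gene table held no descriptions. The patterns were therefore run on symbols and synonyms. Of the 18 lists 15 held a gene, 39 genes in all, since only 89 single-gene features have a symbol. To the patterns of the photosystem, NDH and drought lists, genes were also added by locus or name. Another 6 lists, and FZL, HEMA3, SIRB, the genes listed at 0 and those at the 2-fold limit, were named after their values were seen, as were members under 2-fold of the remaining lists. All members and lists were chosen with earlier results of these data known. Alternatives were the ratio without centring, quantile normalization, folds of 1.5 and 3, only features that have a ratio in each of 10 columns, spots without averaging, and 0 kept with a pseudocount of 0.522, the 5th percentile of the positive ratios. Promoter motifs were not searched, since no sequence was used here.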

Additional observations from a re-analysis of the deposited data

How the results depend on the processing

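Counts at 2-fold in the 48 h column of PSI light depended on centring. Without it, 366 features were above and 148 below, and 69 and 17 single genes, so that 71.2% of the features past 2-fold were above, against 39.1% after centring, and 80.2% against 42.1% of the single genes. Quantile normalization left 91 features and 12 single genes below, with 160 and 26 above. A fold of 1.5 gave 452 above and 510 below, and 84 and 96 single genes. A fold of 3 gave 30 and 97, and 4 and 12 single genes. With 0 kept and a pseudocount, 81 features and 13 single genes were above, and 163 and 26 below. Over features with values in all 10 columns, 109 features and 16 single genes were above, and 209 and 31 below. Counts over single spots equalled the main ones.

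Of the 57 single genes past 2-fold, 41 stayed past it without centring, 36 after quantile normalization and 22 with the pseudocount, which draws ratios together. None changed sign. LHB1B2 and PSBW had −3.10 and −2.63 without centring, whereas PSAN, OTP70 and NdhS lay under 2-fold there. NTRC passed 2-fold without centring, with 1.33. Without centring, 7 of 20 list medians changed sign, those of the NDH, pigment, plastid ribosome and protease lists among them.

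No paired analysis was possible because each condition has 1 column. A filter on low levels could not be made, since ratios hold no level, and the signal over background is unknown.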
